A study of Mus musculus with 8 samples.

Results

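The genes described here make mature microRNAs and carry out their silencing: Drosha, Dgcr8, Xpo5, Dicer1, Tarbp2, the Argonautes Ago1 to Ago4, and Tnrc6a. They were followed in mouse leukaemia lines of the pre-B stage after transfection of a synthetic microRNA. Every probe whose array name or RefSeq accession belongs to one of these 10 genes was taken, older names such as Rnasen and Eif2c1 included, which gave 16 of the 55681 probes on the array. Of these, 14 carry a RefSeq accession and 2 carry older names of cDNA clones that the gene table lists under Ago2. In all, 15 probes of 9 genes passed the filter on dim probes, 12 probes of 8 genes were well above background on all 8 arrays, and the Ago3 probe did not pass. Testing needed a probe that both arrays of some group read well above background, and the brightest such probe stood for its gene. That left 18792 genes in the series.

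The cells were 70Z/3, a pre-B lymphoblast leukaemia line, and 18-81, pre-B cells that carry Abelson murine leukaemia virus as their transforming agent. Each line was transfected with a lipid reagent and 10 nM of either a synthetic duplex that releases miR-125b (pre-miR-125b) or miR-Neg, its control. After 8 h the cells got new medium, and total RNA taken at 48 h was hybridised to one-colour arrays. The 4 groups have 2 arrays each, from 2 independent experiments, and the experiment was set up to find targets of miR-125b. No genetic change to the pathway was made in any group, so all 4 groups carry the lines' own microRNA machinery.

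A microRNA gene is first transcribed as a long hairpin-bearing RNA. In the nucleus Drosha, an RNase III enzyme, and its RNA-binding partner Dgcr8 cut the hairpin out, and Xpo5 carries it to the cytoplasm, where Dicer1 with its partner Tarbp2 cuts it to a duplex. One strand is loaded into an Argonaute, which finds target mRNAs mainly through the seed of the microRNA, and Tnrc6a (GW182) links the Argonaute to deadenylation and repression. Ago2 is the Argonaute able to slice a target, and pre-B cells need the pathway to develop. A transfected duplex enters after the nuclear steps and has to be loaded into an Argonaute to act.

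The mature miR-125b of the mouse is shown with the family members that share its seed, bases 2 to 8 from the 5′ end, in capitals, because the seed is what the loaded Argonaute reads. The sequences are those of RefSeq (GRCm38.p6). The bases of the synthetic duplex itself were not used here.
mmu-miR-125b-5p: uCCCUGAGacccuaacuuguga
mmu-miR-125a-5p: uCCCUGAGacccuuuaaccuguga
mmu-miR-351-5p: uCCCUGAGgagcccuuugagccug
Of 1679 mature microRNA names in the table, 5 have this seed, the other two being mmu-miR-6367 and mmu-miR-6394. The letters that pair with it, CTCAGGG (read on the probe strand only), are in 0 of the 16 probes and in 0.44% of all probes, which says nothing about the rest of the transcripts. The array does not measure mature microRNAs, so the delivered miR-125b has no value here.

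What the array reads of these genes is a stretch of 60 bases per probe. A Drosha probe (A_55_P2039603, mm9 chr15:12864767-12864826, plus strand) and the dimmer Ago1 probe (A_55_P2184751, mm9 chr4:126117202-126117261, minus strand) are shown as examples. Each has 1 reading frame free of stop codons, which in 60 bases does not show that it is coding sequence.
Drosha A_55_P2039603: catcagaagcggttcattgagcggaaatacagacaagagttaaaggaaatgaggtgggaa
Ago1 A_55_P2184751: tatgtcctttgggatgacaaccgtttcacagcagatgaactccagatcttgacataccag

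Values are log2 of the intensity minus the array's 75th percentile, so 0 is the level of that percentile on each array. Levels of different probes cannot be set against each other. Precision is bounded by the number of arrays, 8, and the p-values measure the spread between 2 cultures a group. Arrays had between 38.0 and 45.1% of probes well above background. Replicate 2 of 70Z/3 with miR-Neg was the dimmest, with a 75th percentile of 338 against 504 to 725 on the other arrays, and in both 70Z/3 pairs the miR-Neg array was the dimmer one. Each of the 4 groups lay in its own column of the slide, and group and column cannot be told apart. Of 14 pre-B markers, 12 were well above background on all 4 arrays of each line, while Rag1 and Rag2, the recombinase genes of developing lymphocytes, were on none. Of 9 T-cell markers 5 were so in 70Z/3 and 7 in 18-81, and of 8 myeloid markers 4 in each line. Differences carry ± the standard error (SE) of the limma model, and their adjusted p-values (limma, Benjamini-Hochberg) run over all genes tested.

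Between the lines, 2 of the Argonautes and Dicer1 passed by the brightest probe of each gene. Ago4 was far higher in 18-81, Ago2 was 1.75-fold and Dicer1 1.56-fold higher, while Drosha, Dgcr8, Xpo5, Tarbp2, Ago1 and Tnrc6a did not pass. Thus 3 of the 9 genes tested were higher in 18-81 and 0 were lower (limma, 4 arrays against 4). The 4 Ago2 probes did not move together, and the Ago2 call was lost with their mean. Without the filter on dim probes the calls of Ago2 and Dicer1 were both lost. Among all genes tested, 15.6% were higher and 16.2% lower, 31.7% in either direction, so the members' share is close to the background. The arrays of the lines did not overlap, 18-81 being higher, for Dicer1, Drosha and Ago4, against 18.5% of all genes. Ago4 passed the filter on dim probes through 18-81 alone, so its call and its lack of overlap follow in part from that filter. No member had all its 18-81 arrays below the 70Z/3 arrays, against 18.2% of all genes. The median difference of the 9 genes was 0.24, against 0.02 over all genes tested, and only Ago4 passed under each duplex alone, where 21.6% (miR-Neg) and 21.2% (miR-125b) of all genes were called. With the replicate number as a block, 4 of the 9 passed, Ago1 being added, against 48.1% of all genes.

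**Figure D1:**
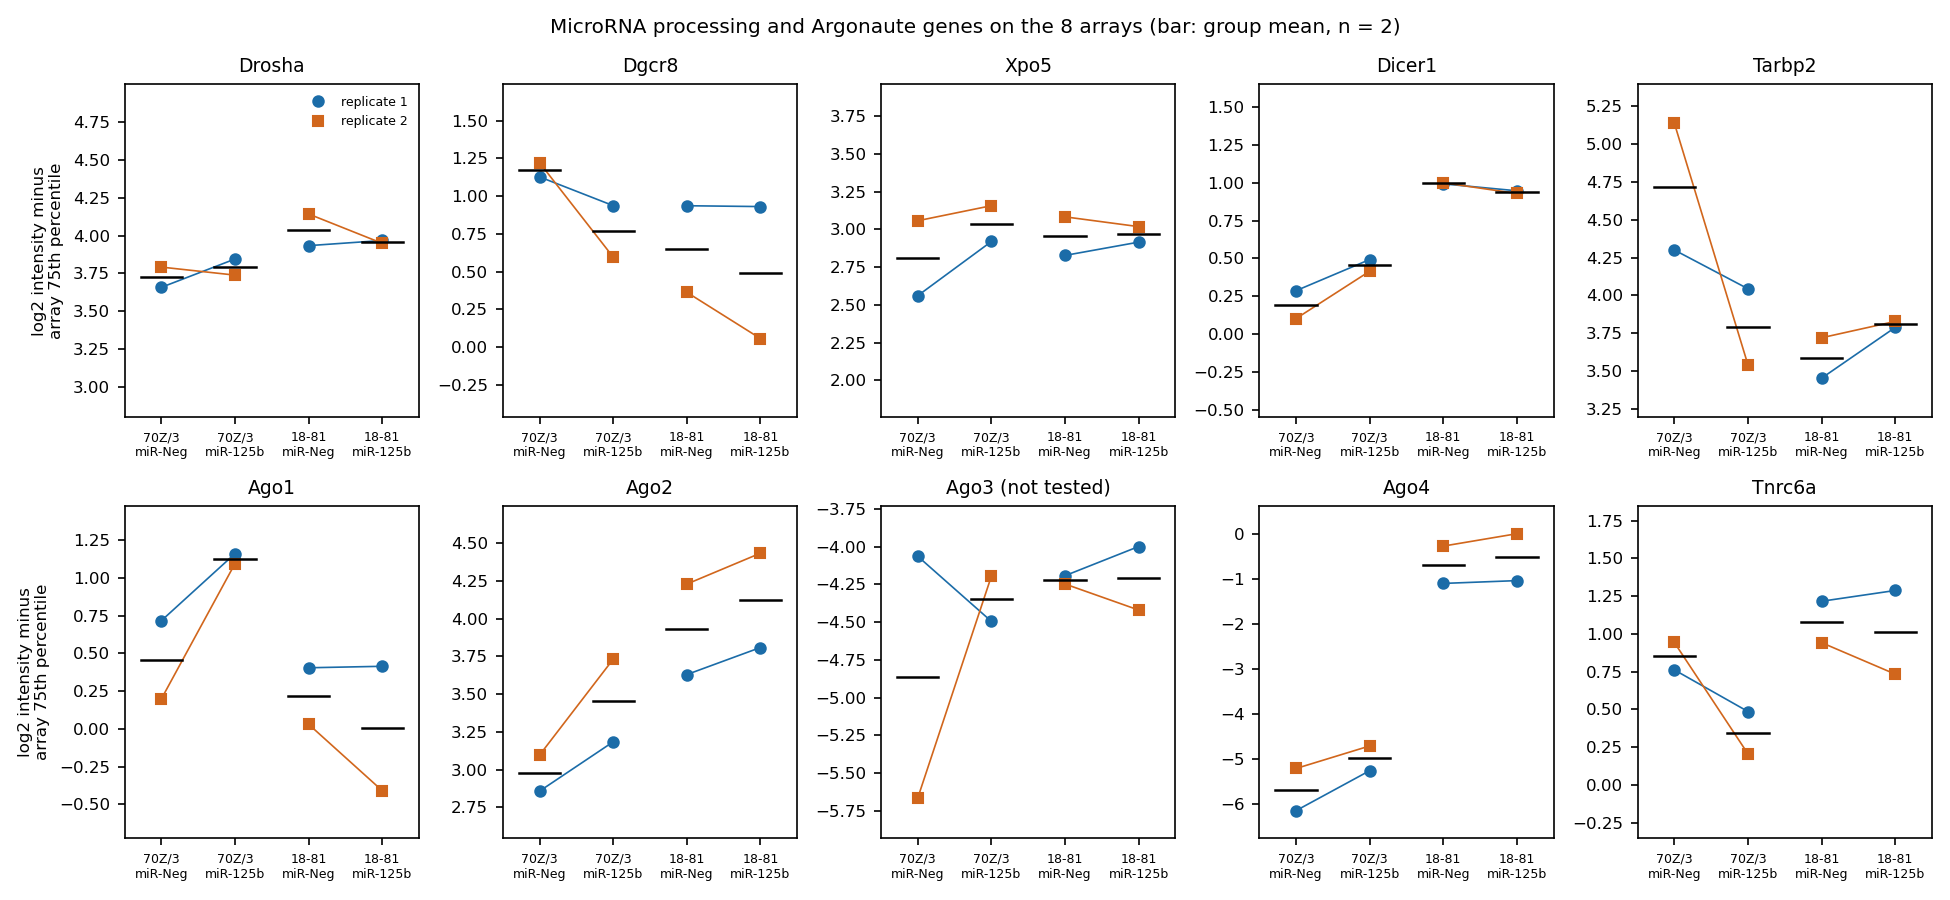
Log2 intensity minus the array's 75th percentile (vertical axis, its own range for each gene) of the 10 genes in the 4 groups, for the brightest probe of each gene or, for Ago3, its only probe. Points are arrays, lines join arrays with the same replicate number in a line, and bars are group means (n = 2). The 4 Ago4 values of 18-81 lie between -1.10 and 0.01, those of 70Z/3 between -6.14 and -4.71.

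Neither the nuclear enzymes nor the exporter passed between the lines. Drosha read 3.66 and 3.79 in 70Z/3 with miR-Neg, 3.84 and 3.74 with miR-125b, 3.93 and 4.14 in 18-81 with miR-Neg, and 3.97 and 3.95 with miR-125b. All 18-81 arrays were thus above all 70Z/3 arrays, but by little: the difference was 0.24 ± 0.18 (limma, adjusted p = 0.371; 95% interval -0.18 to 0.66). Its other probe read between 2.88 and 3.44 with overlapping lines and gave 0.21 ± 0.22. Over the 8 arrays Drosha had the narrowest range of the tested members, 0.49 log2 units.

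Dgcr8, which holds the hairpin for Drosha, read 1.13 and 1.22 in 70Z/3 with miR-Neg, 0.94 and 0.60 with miR-125b, 0.94 and 0.36 in 18-81 with miR-Neg, and 0.93 and 0.06 with miR-125b. The lines overlapped, and the low values are those of replicate 2 in 18-81. The difference was -0.40 ± 0.26 (limma, adjusted p = 0.304), being -0.10 within replicate 1 and -0.70 within replicate 2.

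The exporter Xpo5 read 2.56 and 3.06 in 70Z/3 with miR-Neg, 2.92 and 3.16 with miR-125b, 2.83 and 3.08 in 18-81 with miR-Neg, and 2.92 and 3.02 with miR-125b. The lines overlapped, at 0.04 ± 0.21 (limma, adjusted p = 0.916). The 95% interval runs from -0.44 to 0.52, so differences within that range are not excluded for this gene.

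In the cytoplasm, Dicer1 was higher in 18-81, while its partner Tarbp2 did not pass. Dicer1 (probe at mm9 chr12:105926064-105926123, minus strand) read 0.29 and 0.10 in 70Z/3 with miR-Neg, 0.49 and 0.42 with miR-125b, 0.99 and 1.00 in 18-81 with miR-Neg, and 0.95 and 0.93 with miR-125b. The 18-81 arrays agreed within 0.07 of each other (lowest 0.93, highest 1.00) and all lay above 70Z/3. The difference was 0.64 ± 0.18 (limma, adjusted p = 0.0268), 0.58 within replicate 1 and 0.71 within replicate 2. The call was lost without the filter on dim probes (adjusted p = 0.105) and when any 1 array other than replicate 1 of 70Z/3 with miR-Neg was left out. Over 16 alternatives the adjusted p ran from 0.00552 to 0.107 while the difference stayed between 0.60 and 0.69.

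Tarbp2, the double-stranded RNA-binding partner of Dicer1, read 4.30 and 5.14 in 70Z/3 with miR-Neg, 4.04 and 3.54 with miR-125b, 3.45 and 3.72 in 18-81 with miR-Neg, and 3.79 and 3.83 with miR-125b. Both 70Z/3 arrays with miR-Neg were above all others. The difference between the lines was -0.56 ± 0.25 (limma, adjusted p = 0.136), being -0.55 within replicate 1 and -0.57 within replicate 2. It was -1.13 ± 0.36 under miR-Neg (limma, adjusted p = 0.0587) and 0.02 ± 0.36 under miR-125b. Without replicate 1 of 70Z/3 with miR-Neg the difference was -0.77 and passed (limma, adjusted p = 0.0433; 0.0433 to 0.367 over 16 alternatives).

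**Figure D2:**
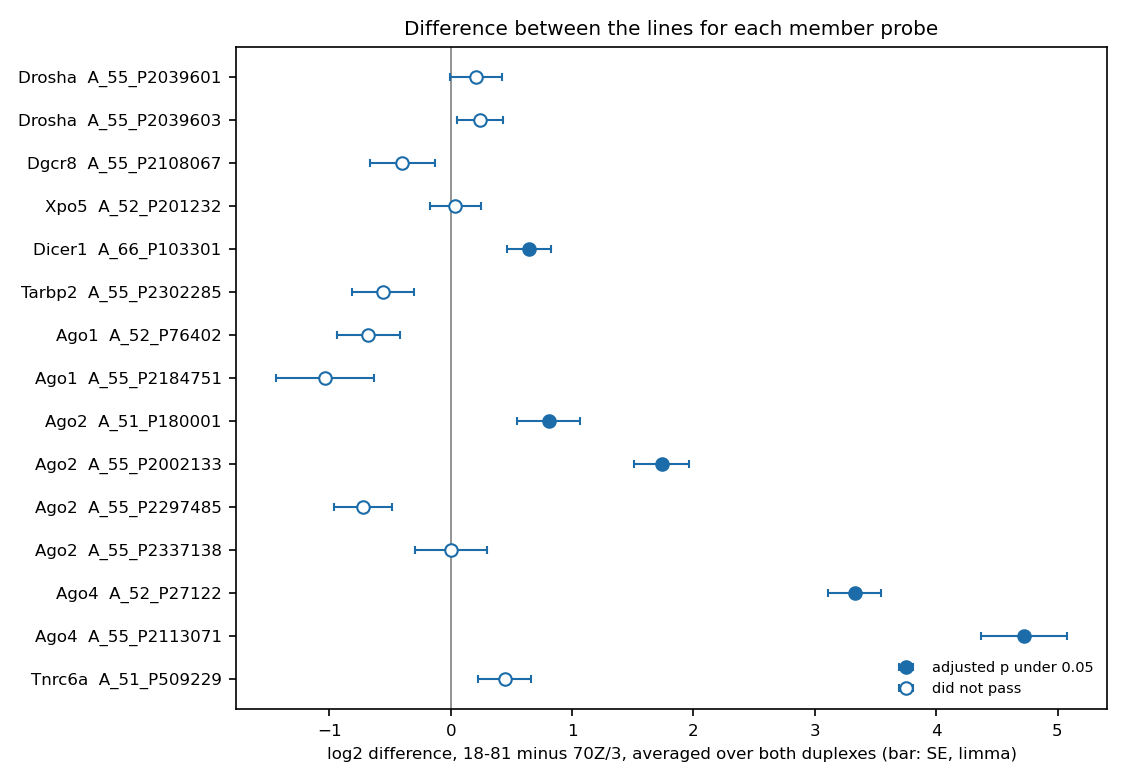
Log2 difference of 18-81 minus 70Z/3, averaged over both duplexes (horizontal axis), for each of the 15 member probes tested, with the SE of the limma model as bars and Ago4 at its measured readings. Filled points passed at an adjusted p under 0.05 over all probes tested. Both Ago4 probes and 2 of the 4 Ago2 probes lie to the right with Dicer1, while the other Ago2 probes do not.

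Ago4, an Argonaute without known slicing activity, carried the largest difference of the 9 genes. Its brighter probe (mm9 chr4:126169537-126169596, minus strand) read -6.14 and -5.21 in 70Z/3 with miR-Neg, -5.25 and -4.71 with miR-125b, -1.10 and -0.27 in 18-81 with miR-Neg, and -1.04 and 0.01 with miR-125b. It was well above background on 4 of 4 arrays of 18-81 and on 0 of 4 of 70Z/3, so no exact fold can be given. In a bulk sample, fewer cells with the transcript and less transcript per cell cannot be told apart.

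With 70Z/3 set to a floor, Ago4 was 14.9-fold higher in 18-81 by the brighter probe and 4.71-fold by the other. The floor on each 70Z/3 array is the dimmest reading of any probe well above background, or the Ago4 reading where that was brighter. It is not a detection limit, because an undetected probe can read above it. On replicate 1 of 70Z/3 with miR-Neg it was -5.04, and Ago3 read -4.06 there without being well above background. The fold may therefore be smaller than these values. The measured means were -0.60 in 18-81 and -5.33 in 70Z/3 (limma, adjusted p = 1.87e-05). Since the 70Z/3 readings are at background and the gene passed the filter through 18-81 alone, the size is uncertain. The measured log2 difference of 4.73 depended on the background correction, being 2.15 with normexp. The other probe had measured means of -2.19 and -5.52 (limma over probes, adjusted p = 8.54e-06).

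Ago3, Ago1 and Ago4 stand next to each other on chromosome 4 on the minus strand, between Tekt2 and Clspn in the RefSeq gene table. No such difference was measured for the neighbours that could be tested. Clspn, a replication checkpoint gene on the far side of Ago4, was at 0.00 ± 0.30, and Adprhl2 beyond Tekt2 at -0.01 ± 0.25 (limma, adjusted p = 0.994 and 0.987). Ago1 did not pass, as given next.

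Ago1 read 0.72 and 0.20 in 70Z/3 with miR-Neg, 1.16 and 1.09 with miR-125b, 0.40 and 0.03 in 18-81 with miR-Neg, and 0.41 and -0.41 with miR-125b. The 70Z/3 arrays with miR-125b were above all others, and 70Z/3 with miR-Neg overlapped 18-81. The difference was -0.68 ± 0.26 and did not pass (limma, adjusted p = 0.0804). With the replicate number as a block it passed (limma, adjusted p = 0.0146), and it also did without replicate 1 of 18-81 with miR-125b (-0.89; limma, adjusted p = 0.0367). Over 16 alternatives the adjusted p ran from 0.0146 to 0.231. The dimmer probe printed above, well above background on 6 of 8 arrays, gave -1.04 ± 0.41 (limma over probes, adjusted p = 0.0908).

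The single Ago3 probe read -4.06 and -5.66 in 70Z/3 with miR-Neg, -4.50 and -4.19 with miR-125b, -4.19 and -4.25 in 18-81 with miR-Neg, and -4.00 and -4.42 with miR-125b. It was well above background on 3 of 8 arrays and never on both arrays of a group, so no difference is given.

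Ago2, the Argonaute that can cut its targets, has 4 probes, and they did not move together. The brightest (mm9 chr15:72936863-72936922, minus strand) read 2.86 and 3.10 in 70Z/3 with miR-Neg, 3.18 and 3.73 with miR-125b, 3.63 and 4.23 in 18-81 with miR-Neg, and 3.81 and 4.43 with miR-125b. Only 1 array of 70Z/3, replicate 2 with miR-125b, reached into the range of 18-81, and within each replicate 18-81 was higher. The difference was 0.81 ± 0.26 (limma, adjusted p = 0.0456), 0.70 within replicate 1 and 0.92 within replicate 2.

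That call was lost without the filter on dim probes (adjusted p = 0.108), with the mean of all Ago2 probes (0.46, limma, adjusted p = 0.149), and when any 1 array other than the replicate 1 arrays of 18-81 was left out. Over 16 alternatives the adjusted p ran from 0.00334 to 0.165. The second probe with the gene's accession, A_55_P2002133, read 0.59 and -0.01 in 70Z/3 with miR-Neg, 0.62 and 0.95 with miR-125b, 2.32 and 2.10 in 18-81 with miR-Neg, and 2.46 and 2.21 with miR-125b. Here the lines did not overlap, and the difference was 1.74 ± 0.23 (limma over probes, adjusted p = 0.000522), a 3.33-fold higher signal in 18-81.

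Both probes with clone names lie downstream of these on the same strand, 7916 and 10437 bases past the brightest one on mm9. No gene model of that build was used here, so it is not known whether they read the same transcript. A_55_P2337138, the farther one, read 2.40 and 3.03 in 70Z/3 with miR-Neg, 2.63 and 3.51 with miR-125b, 2.65 and 3.23 in 18-81 with miR-Neg, and 2.60 and 3.10 with miR-125b. The replicates differed more than the lines, which stood at 0.00 ± 0.30 from each other (95% interval -0.68 to 0.69).

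The nearer one, A_55_P2297485 (mm9 chr15:72928888-72928947), read 2.85 and 3.24 in 70Z/3 with miR-Neg, 3.26 and 3.96 with miR-125b, 3.06 and 3.36 in 18-81 with miR-Neg, and 2.10 and 1.88 with miR-125b. The lines were at a like level with miR-Neg, and both 18-81 arrays with miR-125b were below every other array. Between the lines it differed by 0.17 ± 0.34 under miR-Neg (limma over probes, adjusted p = 0.785) and by -1.62 ± 0.34 under miR-125b (limma over probes, adjusted p = 0.0102). Averaged over both duplexes it was at -0.72 ± 0.24 and did not pass (limma over probes, adjusted p = 0.0518).

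Within 18-81, miR-125b minus miR-Neg was -1.22 ± 0.34 for this probe, -0.96 in replicate 1 and -1.48 in replicate 2, against 0.56 ± 0.34 in 70Z/3. Neither passed (limma over probes, unadjusted p = 0.00705 and 0.136, adjusted p = 1.00 and 0.772), nor did the difference of the effects, -1.78 ± 0.48 (unadjusted p = 0.00596, adjusted p = 0.944). The other Ago2 probes were between -0.10 and 0.19 in the same comparison in 18-81. The probe was singled out after its values were seen. By probes, 5 of the 15 tested were called between the lines and all of these were higher in 18-81, against 31.6% of all probes in either direction. Under miR-Neg alone 3 were, against 21.4% of all probes, and under miR-125b alone 4, against 21.1%. Both Ago4 probes are among the calls in each of these comparisons. They passed the filter through 18-81 alone, so their calls and direction follow in part from that filter.

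**Figure D3:**
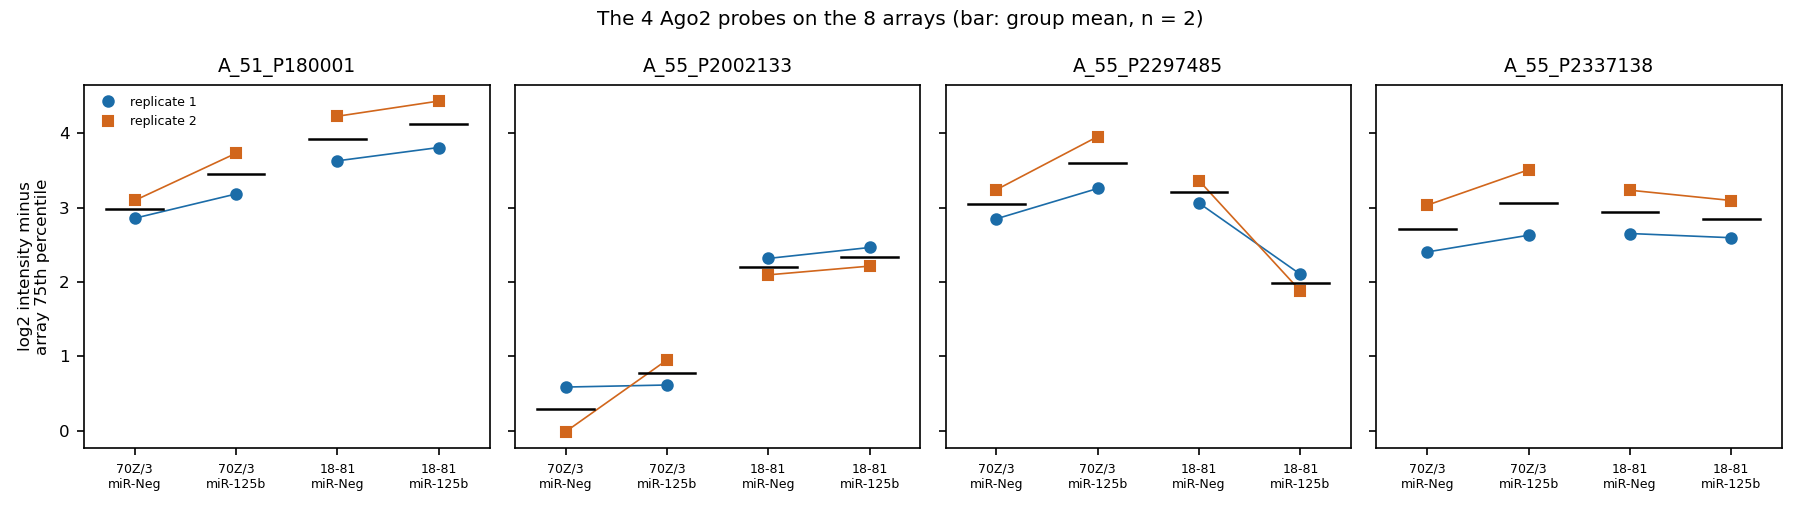
Log2 intensity minus the array's 75th percentile (vertical axis, shared) for the 4 Ago2 probes in the 4 groups, from the brightest probe at the left to the clone-named probe farthest downstream at the right. Points are arrays, lines join arrays with the same replicate number in a line, and bars are group means (n = 2). The third probe reads 2.10 and 1.88 in 18-81 with miR-125b, below its 6 other values.

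Tnrc6a, the scaffold that carries repression from the Argonaute to the deadenylases, read 0.76 and 0.94 in 70Z/3 with miR-Neg, 0.49 and 0.21 with miR-125b, 1.22 and 0.94 in 18-81 with miR-Neg, and 1.29 and 0.73 with miR-125b. The lines overlapped through replicate 2, and the difference was 0.45 ± 0.22 (limma, adjusted p = 0.163). It was 0.63 within replicate 1 and 0.26 within replicate 2.

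The question of the experiment is what miR-125b changes, and for these genes no change was called. In 70Z/3, where Ago4 has no measured value, 0 of the other 8 genes passed after miR-125b, as did 0.0% of all genes tested (limma). At an unadjusted p under 0.05 there was 1 of the 8, Tarbp2, against 5.87% of all genes. With the replicate number as a block there were 3 (Ago1, Ago2 and Tarbp2) against 20.9% of all genes, and none of the 8 passed after adjustment. Both miR-125b arrays were above both miR-Neg arrays for 3 genes (Dicer1, Ago1 and Ago2) against 14.9% of all genes, and below for 3 (Dgcr8, Tarbp2 and Tnrc6a) against 22.7%. In 18-81, 0 of 9 passed, 0.0% of all genes did, and 0 of 9 against 1.22% of all genes had an unadjusted p under 0.05. There the arrays of the duplexes did not overlap for 1 gene higher and 1 lower, against 7.79% and 5.17% of all genes. The difference of the effects between the lines gave 0 calls among the 8 and 0.0% of all genes. At an unadjusted p under 0.05 there were 0 of the 8 against 3.22% of all genes, and with the block 2 (Ago1 and Tarbp2) against 12.9%. On simulated data, changes of 1 log2 unit in 70Z/3 were recovered in 2% of cases and changes of 2 log2 units in 72%, so shifts of the size seen here would mostly not be called.

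Over all genes tested, the 5th to 95th percentile of the difference ran from -0.81 to 0.88 in 70Z/3 and from -0.41 to 0.46 in 18-81, and the members' values are to be read against these ranges. In 70Z/3 Tarbp2 was at -0.93 ± 0.36 (limma, unadjusted p = 0.0322, adjusted p = 0.773), with -0.26 in replicate 1 and -1.60 in replicate 2. Without the dim replicate 2 of 70Z/3 with miR-Neg it was -0.51, and with 1 array left out it ran from -1.35 to -0.51. In 18-81 it was at 0.22 ± 0.36, and the effects differed by 1.15 ± 0.51 (limma, unadjusted p = 0.0528, adjusted p = 0.940).

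Among the Argonautes of 70Z/3, Ago1 was at 0.67 ± 0.36 (0.44 and 0.90 in replicates 1 and 2) and Ago2 at 0.48 ± 0.36 (0.33 and 0.63; limma, adjusted p = 0.773 for both). Both pairs of each gene thus lay above 0, and with 1 array left out Ago1 ran from 0.41 to 0.93 and Ago2 from 0.21 to 0.75. In 18-81 the same genes were at -0.21 ± 0.36 and 0.19 ± 0.36. Ago4 in 18-81 was at 0.17 ± 0.50.

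Of the other genes in 70Z/3, Tnrc6a was at -0.51 ± 0.30, Dgcr8 at -0.41 ± 0.37, Dicer1 at 0.26 ± 0.25, Xpo5 at 0.23 ± 0.29 and Drosha at 0.07 ± 0.26, and none passed. All of them lay within 0.16 of 0 in 18-81, with Dgcr8 the farthest at -0.16 ± 0.37. The median was 0.15 over the 8 genes in 70Z/3 against -0.13 over all genes tested, and -0.06 over the 9 genes in 18-81 against 0.03. The 95% interval for Dicer1 ran from -0.33 to 0.85 in 70Z/3 and from -0.64 to 0.53 in 18-81.

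**Figure D4:**
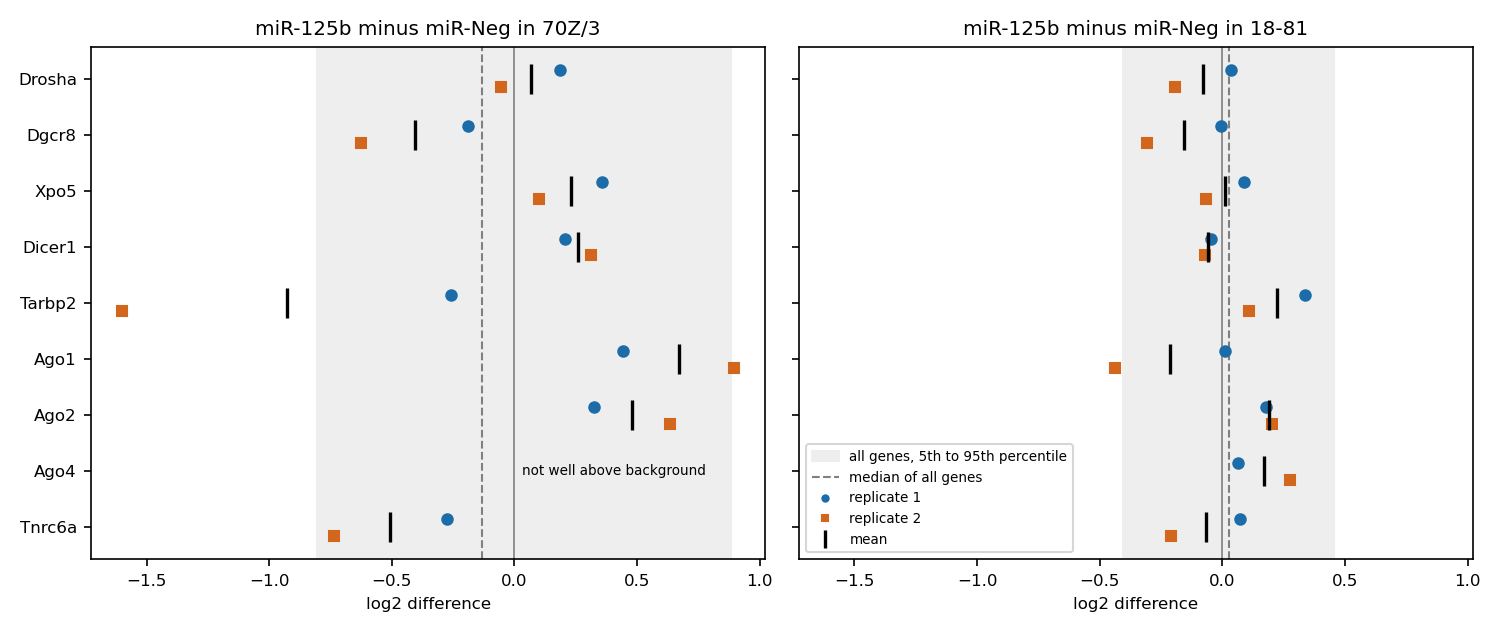
Log2 difference of miR-125b minus miR-Neg (horizontal axis) in 70Z/3 (left) and 18-81 (right) for the 9 members tested (8 in 70Z/3), with a point for each replicate pair and a bar for their mean. The grey band spans the 5th to 95th percentile of all genes tested and the dashed line is their median; Ago4 is not plotted in 70Z/3, where no array read it well above background. Tarbp2 in 70Z/3 spans -0.26 to -1.60, while the means in 18-81 lie between -0.21 and 0.22.

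Interferon response genes, which include sensors of double-stranded RNA, moved alongside some of these values. The median level of 26 of them was 0.29 and -0.96 in 70Z/3 with miR-Neg (replicates 1 and 2) and 1.17 and 0.85 with miR-125b. In 18-81 it was -3.83 and -3.29 with miR-Neg and -3.77 and -2.92 with miR-125b. Between the lines 21 of the 26 were lower in 18-81 and 0 higher (median difference -2.57), against 16.2% and 15.6% of all genes (limma). In 70Z/3 after miR-125b 0 passed, and 17 had an unadjusted p under 0.05 against 5.87% of all genes (limma, median 1.66). Oasl2 and Xaf1 each had a probe at background on all 18-81 arrays that passed the filter through 70Z/3 alone. Oas1a, Oas3 and Mx1 each had a probe at background in 70Z/3 with miR-Neg. The medians therefore rest in part on background readings. Array brightness and this list differ between the miR-Neg arrays of 70Z/3 in the same direction, and the part of either in the Tarbp2 and Argonaute values was not tested.

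The wider pathway was read from lists of genes that act before, with or after these members. Over the lists for processing, loading, silencing, decay, tailing, the Piwi branch and primary transcripts, 68 of 80 genes were tested, and 9 were higher and 4 lower in 18-81. That is 19.1%, below the 31.7% of all genes called between the lines.

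Among the nuclear processing genes 1 of 11 was higher and 1 lower. Adarb1 (ADAR2), which edits adenosine to inosine in double-stranded RNA, had a mean of 1.48 in 18-81 and -3.64 in 70Z/3, a difference of 5.12 ± 0.23, and was well above background on 2 of 4 arrays of 70Z/3 and all 4 of 18-81, so the size rests in part on readings at background. Adar (ADAR1), also an adenosine deaminase, was at -1.53 ± 0.25 by its brighter probe, but its other probe was at 1.47 and the call was lost with the mean of all probes, so the direction for the gene is uncertain (limma, adjusted p = 8.98e-07 and 0.00204).

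Of the 10 Dicer and loading partners, Tsnax (translin-associated factor X), part of the nuclease that clears the passenger strand, was 4.70-fold higher in 18-81 (2.23 ± 0.20; limma, adjusted p = 5.85e-05). Prkra (PACT), the other double-stranded RNA partner of Dicer1, was 1.62-fold lower (-0.70 ± 0.21; limma, adjusted p = 0.0335). Adar, which is also on this list, makes up the second lower call, and the heat shock chaperones on it did not pass.

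The silencing effectors gave 3 higher and 1 lower of 14. The helicase Ddx20 (Gemin3) was at 1.04 ± 0.23, and the fragile X relatives Fxr1 and Fxr2, RNA-binding proteins, at 1.08 ± 0.32 and 0.91 ± 0.29. The RNA helicase Mov10, which associates with Argonautes, was 2.25-fold lower (-1.17 ± 0.21; limma, adjusted p = 0.00310).

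Among 22 genes of deadenylation and decay, 3 were higher, against 15.6% of all genes. They were the catalytic subunit Cnot7 (0.97 ± 0.18), the scaffold Cnot1 (0.83 ± 0.21) and Cnot10 (0.82 ± 0.21), subunits of the CCR4-NOT deadenylase that Tnrc6a recruits. The other subunits on the list (Cnot2, Cnot3, Cnot6, Cnot6l, Cnot8 and Cnot9) did not pass. The exonuclease Xrn1, which degrades decapped mRNA, was 2.79-fold lower (-1.48 ± 0.26; limma, adjusted p = 0.00293). Of 10 tailing and turnover genes, the uridylyltransferase Tut7 was higher (0.67 ± 0.22; limma, adjusted p = 0.0483). Mir17hg, the host transcript of the miR-17 cluster, was the only tested primary transcript of 8, at 0.30 ± 0.43.

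Adarb1, Tsnax, Ddx20, Mov10, Cnot7 and Xrn1 passed with each array left out in turn, as did the brighter Adar probe. Prkra, Fxr1, Fxr2, Cnot1, Cnot10 and Tut7 kept the call in 1, 3, 2, 5, 6 and 1 of the 8 such fits and lost it without the filter on dim probes. Fxr1 also lost it with the mean of all its probes. With the replicate number as a block, calls rose to 5 of the nuclear processing genes, 9 of the decay genes and 5 of the tailing and turnover genes (limma), while 48.1% of all genes were called in that fit. Mov10 and Xrn1 were lower in the same line as the interferon response list, whose part in them was not tested.

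After miR-125b 0 of the 68 genes passed in either line. At an unadjusted p under 0.05 there were 3 in 70Z/3 and 0 in 18-81, against 5.87% and 1.22% of all genes, so that the share in 70Z/3 is not above the background. The 3 were Mov10 (0.69 ± 0.29), the nuclease Snd1 (0.62 ± 0.25) and the decapping enzyme Dcp2 (-0.97 ± 0.28; limma, adjusted p = 0.773, 0.773 and 0.757).

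**Figure D5:**
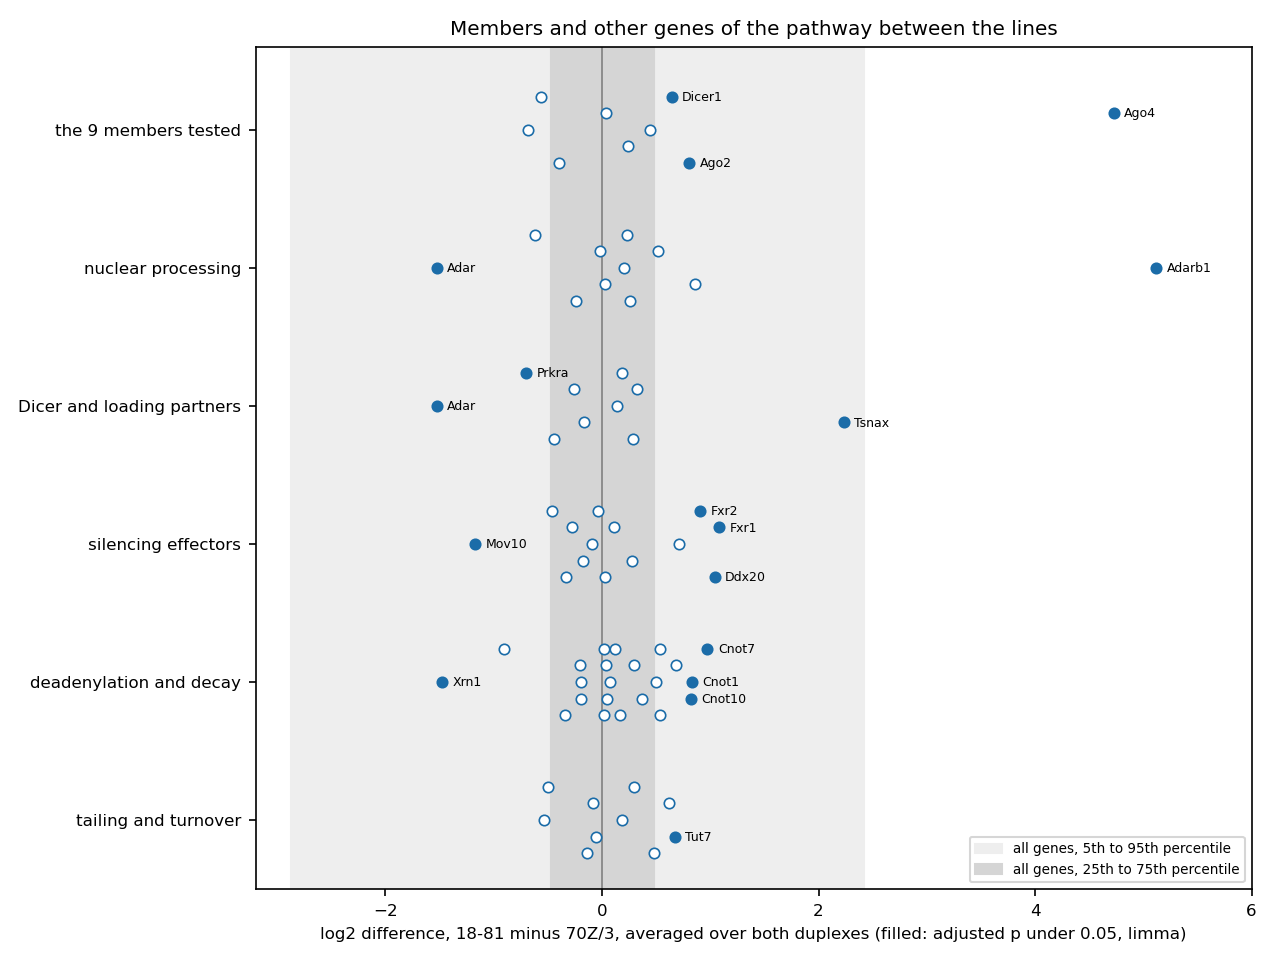
Log2 difference of 18-81 minus 70Z/3 (horizontal axis) for the 9 members tested and for the genes of 5 pathway lists, a point per gene; Adar is on 2 lists. Filled and named points passed at an adjusted p under 0.05 (limma), and the grey bands span the middle of all genes tested. Of the members, Drosha, Dgcr8, Xpo5 and Tnrc6a lie within the 25th to 75th percentile band, and Dicer1, Ago1, Ago2, Ago4 and Tarbp2 outside it. Ago4 and Adarb1 lie beyond the 95th percentile.

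For Dicer1, Drosha and Ago2, the genes with the most similar profile over the 8 arrays were listed by Pearson correlation among 13692 genes with a symbol. Dicer1 was closest to BC040756 (r = 0.997), Mef2b (0.994) and 1810055G02Rik (0.993), and Ago2 to Mbnl2 (0.992), Fbxw7 (0.989) and Maff (0.987). Drosha, which varied least, was closest to Zfp932 (0.961), Pa2g4 (0.956) and Pcdhb20 (0.953). These values describe the same 8 arrays, share their 2 lines and 2 replicates, and carry no test.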

How the data were processed

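Total RNA of 8 samples was read on 8 one-colour mouse arrays on 1 slide. Per the file headers, spot intensity was read by the authors in Agilent Feature Extraction 10.7.3.1, and the deposited processed intensity is background-subtracted and detrended. The deposited series table, with a normalization not stated in those headers, served as an alternative. Spots that are controls or have an outlier call (140 to 203 an array) were dropped, and none was saturated. Probe names come from RefSeq's gene table (GRCm38.p6), and positions are those of mm9 in the files.

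Log2 intensity minus the array's 75th percentile was fitted with limma 3.58.1 in R 4.3.3 as 4 group means on all 8 arrays, with Benjamini-Hochberg adjustment at 0.05. Residual degrees of freedom were 4, the prior degrees of freedom 3.83 and the prior standard deviation 0.355. A second fit took each of the 25315 probes past the filter as a row. The fit was tested on simulated data with known changes, 50 genes at each size among 18792. Between the lines it recovered 28% of changes of 1 log2 unit and 98% of 2 log2 units. In the data 31.7% of genes were called between the lines, so the adjusted threshold there is less strict than in the simulation. The simulated shares therefore do not give the recovery in that comparison. Members and gene lists were chosen with earlier results of these data known. The text names all 10 members, each list gene called between the lines, and those at an unadjusted p under 0.05 for the duplexes.

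Deviations from the group means correlated between arrays of one replicate number (lowest r 0.374 and highest 0.648 among 6 group pairs), and the series text names 2 independent experiments. The numbers therefore count as pairs, which also follow the slide row. The main fit does not use the pairs, so shifts between the replicate numbers stay in its error. A fit with the replicate block is an alternative, in which the SE of Ago2 between the lines was 0.13 against 0.26. Over all genes the median effect of miR-125b in 70Z/3 was -0.13, and -0.01 after quantile normalization.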

Additional observations from a re-analysis of the deposited data

How the results depend on the processing

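With 2 arrays a group, small changes cannot be told from 0, and the 70Z/3 values of Ago4 and all values of Ago3 are limited by background. Without a filter on dim probes 1 member was called between the lines in place of 3. With 1 array left out 1 to 3 were, of which 1 or 2 are among the original 3 and the rest are Ago1 or Tarbp2. The replicate block changed 1 member's call between the lines (Ago1, -0.68, now passing) and no other, and moved the genes called from 5965 to 9031 between the lines, to 6829 under miR-Neg and to 6764 under miR-125b. Requiring all 8 arrays above background gave 3513, 1868 and 1722. After miR-125b in 70Z/3, normexp background correction and the block within each line each gave 1 gene. With 1 array left out, genes called ran from 0 to 2 in 70Z/3, 0 to 9 in 18-81, 0 to 5 averaged over both lines and 0 to 5 for the difference of the effects.

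Ago4 has no value in 70Z/3 or for the difference of the effects. Of 567 member values under the alternatives, 523 kept their direction and side of the threshold, 16 lost a call, 3 gained one and 25 turned, all of the last among values that had not passed. With the mean of all probes Drosha was at -0.049 in 70Z/3 and 0.046 for the difference of the effects, and Ago1 at 0.28 and Ago2 at -0.25 in 18-81. With 1 array left out, effects in 18-81 ran from -0.18 to 0.025 for Drosha, -0.59 to 0.28 for Dgcr8, -0.12 to 0.14 for Xpo5, -0.63 to 0.20 for Ago1, -0.12 to 0.50 for Ago2, -0.35 to 0.69 for Ago4 and -0.35 to 0.21 for Tnrc6a. The difference of the effects ran from -0.19 to 0.69 for Dgcr8, -0.47 to 0.031 for Xpo5 and -0.60 to 0.023 for Ago2. Xpo5 ran from -0.019 to 0.48 in 70Z/3 and from -0.087 to 0.16 between the lines. The cause of these turns was not tested.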
